A study of Arabidopsis thaliana with 16 samples.

Results

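The comparison set leaves of the Arabidopsis thaliana mutant atgsnor1-3 against leaves of the mutant sid2, each 6 h after avrB, on Affymetrix ATH1 arrays. Its members were found by sample title: 2 arrays of atgsnor1-3 and 2 of sid2, so 4 of the 16 arrays in the series. The other 12 arrays were untreated leaves of both mutants, and treated and untreated leaves of the wild type Col-0 and of atgsnor1-1, with 2 arrays per genotype and state. All plants were 4 weeks old and grew at 20 °C and 65% relative humidity, on days of 18 h light. The labels give the tissue as leaf, a stock code for Col-0 alone, and neither the parental accession of the mutants nor the number of plants behind an array. The control state is named untreated, not mock-inoculated, so a response to avrB here includes whatever the inoculation did. One title of sid2 after avrB carries both replicate numbers, and that array was used as the second of its group.

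GSNOR1 encodes S-nitrosoglutathione reductase, the enzyme that removes S-nitrosoglutathione, a store of nitric oxide that can nitrosylate protein cysteines. Plants of atgsnor1-3 lack a working reductase and are known for raised S-nitrosothiols and weak salicylic acid signalling, whereas atgsnor1-1 is known for more reductase activity. The gene mutated in sid2 encodes isochorismate synthase, the source of most salicylic acid made during infection, while AvrB is a Pseudomonas syringae effector that the resistance protein RPM1 detects. Because both mutants are known for weak salicylic acid responses, the contrast asks what loss of GSNOR1 changes in immunity beyond loss of that hormone.

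Per array, the median scaled MAS5 signal, here called units, was 33.0 to 40.8. Arrays of a group correlated across probe sets at 0.920 to 0.972, and arrays of the compared groups with each other at 0.894 to 0.911. Array 1 of untreated atgsnor1-3 lay closer to array 1 of untreated sid2 (0.931) than to its own replicate (0.920). This untreated pair lay far apart, so the totals of calls at rest are also given without each of its arrays. Both untreated Col-0 arrays also lay closer to an untreated atgsnor1-1 array (0.950 and 0.945) than to each other (0.934). After avrB, array 2 of atgsnor1-1 lay closer to a Col-0 array (0.961) than to its replicate (0.956). No probe set was matched to GSNOR1 or to the isochorismate synthase gene, so neither genotype label was checked on its target. Of 12 leaf photosynthesis markers 3 were measured, and their summed signal was 6197 to 6636 units in atgsnor1-3 and 6020 to 6091 in sid2 after avrB, against 15273 to 17852 in untreated leaves. The sum hides opposite directions after avrB. RCA read 4044 and 4298 units in atgsnor1-3 against 3256 and 3327 in sid2. PRK read 1271 and 1053 against 1550 and 1608, and the groups overlapped for LHCB4.2. Of 5 root markers 2 were measured, and their sums stayed between 10.6 and 44.5 units. Neither gene was tested, since the mean of each over the arrays lay under 20.2 units, the level below which probe sets were left out. Whether replicate arrays hold RNA of different plants is not given, so p-values reflect the spread between these arrays alone, and that spread may be technical. In whole leaves, fewer cells of a type and less RNA per cell cannot be told apart.

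After avrB 1209 of 13647 tested probe sets differed between the mutants, 8.86% of those tested, where a call by limma asked for an adjusted p below 0.05 together with a size of 1 or more on the log2 scale. Of these, 344 were higher in atgsnor1-3 (2.52%) and 865 were lower (6.34%), so 71.5% of the calls were on the lower side, while the median over all tested probe sets was 0.03. In each of the 1209, both atgsnor1-3 arrays lay beyond both sid2 arrays. With 2 arrays per group a call largely brings such a gap with it. Groups that did not overlap are therefore no further support, here or for the called genes below. Differences of at least 2 on the log2 scale numbered 42 higher and 194 lower. Among the lower calls the atgsnor1-3 mean lay under 20.2 units in 233, and among the higher calls the sid2 mean did in 27; near that level a direction is firmer than a size. Without array 2 of atgsnor1-3 after avrB the higher calls numbered 229 and the lower calls 692. A single named locus stood behind 594 of the calls.

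Col-0 gives another level for the same probe sets. Its mean log2 signal after avrB lay nearer to sid2 than to atgsnor1-3 for 305 of the 344 higher calls (88.7%) and for 808 of the 865 lower calls (93.4%). Over all tested probe sets the same held for 69.2%. These shares describe where the 3 genotypes stand and carry no test.

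By the naming rule, the genes higher in atgsnor1-3 included markers of oxidative stress in mitochondria. AT2G21640, a mitochondrial protein gene known for its rise under oxidative stress, read 1009 and 1289 units in the atgsnor1-3 arrays and 48.2 and 63.9 in the sid2 arrays. After avrB the Col-0 arrays read 51.0 and 48.5, and those of atgsnor1-1 24.3 and 36.1. The atgsnor1-3 arrays alone were high: the difference from sid2 was 4.36 ± 0.39 (log2 ± SE, n = 2 per group, limma adjusted p = 2.81e-06). AT5G51440, a small heat shock protein of mitochondria, stood at 994 and 1064 units against 86.1 and 67.2 in sid2 and 50.6 and 42.8 in Col-0. Its groups did not overlap, and they differed by 3.76 ± 0.84 (adjusted p = 0.00543). AT2G04070, of the MATE family of efflux transporters, gave 305 and 317 units against 56.8 and 33.4, a difference of 2.84 ± 0.32 (adjusted p = 1.95e-05). NDB2, an external NADH dehydrogenase of the alternative respiratory path, gave 931 and 936 units against 433 and 365, a difference of 1.23 ± 0.22 (adjusted p = 0.00125).

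These 4 genes were the called members of the mitochondrial stress list, with 7 tested of 11 that the annotation matched. None of the 7 was called lower, and the list's median was 1.41. All tested probe sets had a median of 0.03, and 2.52% of them were called higher. The list was chosen with earlier results of these data known, so setting these values side by side is no test. The 3 without a call were the twin-cysteine protein genes AT5G09570 (1.41 ± 0.73) and AT5G64400 (0.42 ± 0.16), and NDB1 (-0.04 ± 0.37), another external NADH dehydrogenase. The 4 calls held without any one of the 4 arrays. For AT2G21640, AT5G51440 and AT2G04070 the sid2 and Col-0 arrays after avrB all lay between 33.4 and 86.1 units, while NDB2 stood higher in all of them.

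**Figure D1:**
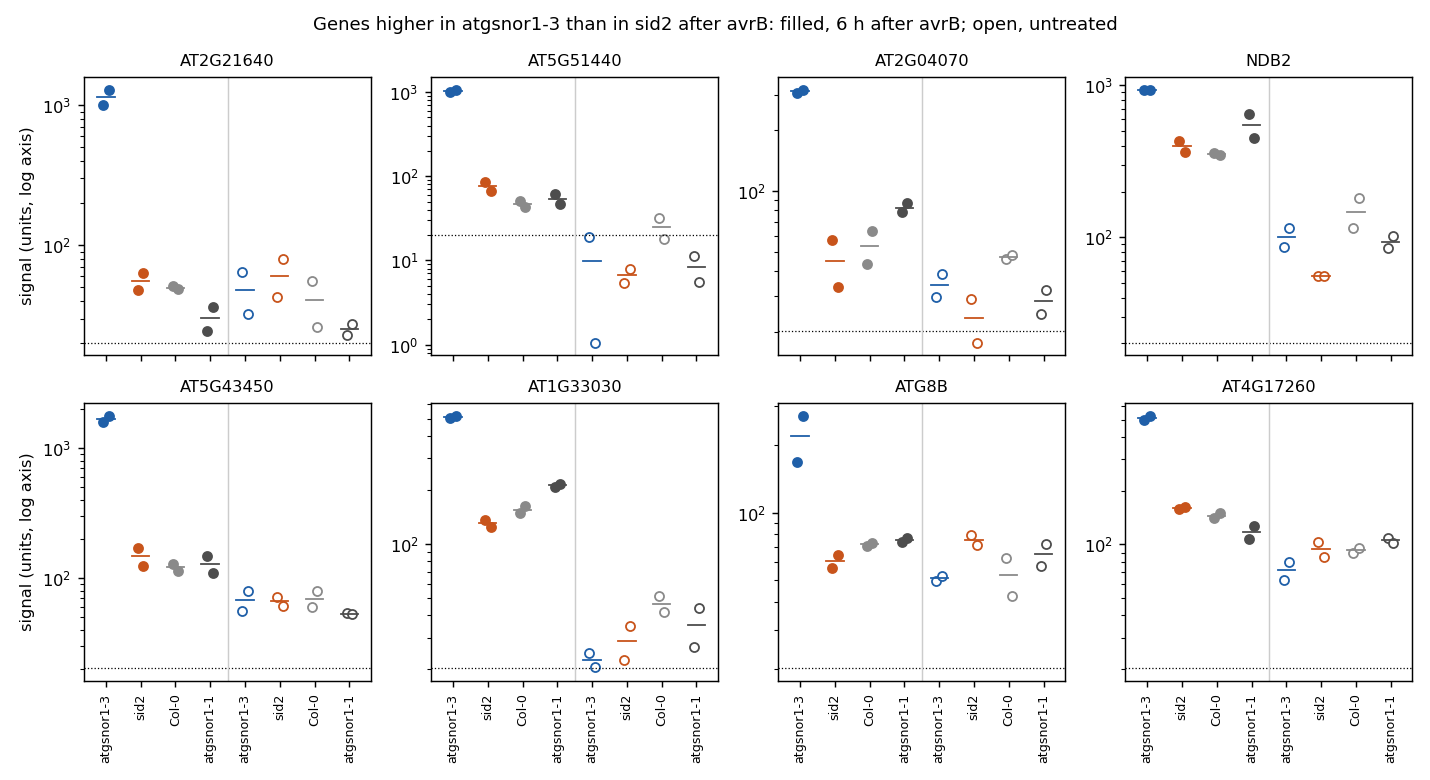
Signals of 8 genes higher in atgsnor1-3 than in sid2 after avrB, on log axes in units that differ between panels; each point is 1 array, short lines are means, filled points are 6 h after avrB, open points are untreated, and the dotted line marks 20.2 units. In every panel both filled atgsnor1-3 points lie above all other filled points.

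Other genes higher in atgsnor1-3 by the naming rule encode enzymes and small metal- or thiol-binding proteins. AT5G43450, of the 2-oxoglutarate-dependent dioxygenase family, read 1586 and 1782 units in atgsnor1-3 and 172 and 125 in sid2. The groups were far apart, with Col-0 at 128 and 114, and the difference was 3.52 ± 0.23 (adjusted p = 3.02e-07). AT1G33030, of the O-methyltransferase family, read 506 and 519.6 against 136 and 124 units, a difference of 1.98 ± 0.26 (adjusted p = 6.91e-05). AT4G17260, a lactate dehydrogenase, read 495 and 527 against 158 and 163 units, a difference of 1.67 ± 0.18 (adjusted p = 1.12e-05). Both atgsnor1-3 arrays were the high ones for each of these enzymes. AT1G06830, of the glutaredoxin family, was higher by 1.70, AT2G36950, of the heavy-metal-associated protein family, by 1.68, and AT5G51830, of the fructokinase family, by 1.64. BGLU45, a beta-glucosidase that releases monolignols from their glucosides, was higher by 2.51, at 131 and 87.8 units against 20.3 and 17.5. AT2G32020, of the acetyltransferase family, was higher by 2.55. AT2G41730, a gene of unknown function, had the second largest difference by the naming rule, at 4.03 ± 0.43; its probe set is of the kind that can bind other transcripts as well.

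Among 10 tested autophagy genes, all of those that the annotation matched, 1 was called. The share called over all tested probe sets was 8.86%, or 2.52% on the higher side. ATG8B, a ubiquitin-like protein of the autophagosome membrane, read 169 and 272 units in atgsnor1-3 and 56.6 and 64.6 in sid2. Its groups did not overlap, and the difference was 1.82 ± 0.25 (adjusted p = 0.00012). The list's median was 0.40. Of the other ATG8 genes, ATG8H stood at 0.56 ± 0.25, ATG8D at 0.54 ± 0.25 and ATG8E at 0.34 ± 0.21, without a call.

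The members of the redox and nitric oxide list were 4, and none was called, beside 8.86% called over all tested probe sets. At that share, no call in a list as small as those of this paragraph says little. The 4 are the reductases and the sulfiredoxin named next, so genes of nitric oxide itself were not covered. Cytosolic glutathione reductase GR1 stood at 0.70 ± 0.17 (adjusted p = 0.00786), below the size threshold, and plastid glutathione reductase GR at 0.11 ± 0.15. Monodehydroascorbate reductase ATMDAR2 was at 0.26 ± 0.13 and sulfiredoxin SRX at -0.05 ± 0.18. Of 7 tested glutathione transferase genes none was called; GSTU27 was at -0.97 ± 0.14 (adjusted p = 0.000207) and GSTU22 at 1.05 ± 0.41 (adjusted p = 0.0894). The 3 tested heat shock genes, Fes1A, BOB1 and AT5G48570, ranged from -0.33 to 0.59, also without a call.

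On the lower side stood genes of wall loosening. Of 13 tested expansin and xyloglucan endotransglucosylase/hydrolase (XTH) genes, out of 28 that the annotation matched, 6 were called lower and none higher, with a median of -1.37. The share called lower over all tested probe sets was 6.34%. Expansins loosen walls during growth, and XTH enzymes cut and rejoin xyloglucan. XTH32 read 43.8 and 37.3 units in atgsnor1-3 against 169.7 and 147 in sid2 and 133 and 160.1 in Col-0. Only atgsnor1-3 was low among these 3 genotypes, at -1.96 ± 0.20 from sid2 (adjusted p = 9.22e-06). EXPA16 read 37.1 and 37.5 against 106 and 123 units (-1.61 ± 0.24) and EXPA8 2.92 and 11.5 against 30.7 and 40.5 units (-2.61 ± 0.42). EXPA4 was at -1.37, a call that ended by size without array 2 of atgsnor1-3 (-0.97, adjusted p = 0.0232), EXLB1 at -1.52 and EXPB1 at -2.26. EXPB1 lay under 20.2 units in all 4 arrays, and its call ended without array 1 of atgsnor1-3 (adjusted p = 0.095) or array 2 of sid2 (adjusted p = 0.0759). With 9.48 units added to each signal, EXPB1 was at -0.77 and no longer called, and EXPA8 was at -1.48. Without 1 array the list kept 5 or 6 lower calls.

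By the naming rule, 3 further genes of wall enzymes were lower. ATPMEPCRB, a pectin methylesterase, read 84.8 and 107 units in atgsnor1-3, 858 and 852 in sid2 and 887 and 1075 in Col-0. The sid2 and Col-0 arrays were at a similar height and atgsnor1-3 far below, at -3.16 ± 0.30 from sid2 (adjusted p = 3.76e-06). AT3G43270, another pectin methylesterase gene, read 489.7 and 421 against 1557 and 2013 units, a difference of -1.96 ± 0.22 (adjusted p = 1.85e-05). GH9C2, of the endoglucanase family, was at 45.6 and 21.1 against 137 and 129 units, a difference of -2.10 ± 0.28 (adjusted p = 7.56e-05). For both genes the atgsnor1-3 arrays lay below those of sid2 and Col-0.

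Other lower genes named by the rule encode proteases, lipases, lectins and leucine-rich repeat proteins. AT3G61820, of the aspartyl protease family, read 39.9 and 50.0 units in atgsnor1-3 and 320.2 and 290.3 in sid2, a difference of -2.77 ± 0.19 (adjusted p = 4e-07). AT1G35710, a leucine-rich repeat receptor kinase gene, read 105 and 139 against 704 and 713 units, with Col-0 higher still at 1182 and 1376, and differed by -2.55 ± 0.20 (adjusted p = 9.48e-07). AT1G49750, with leucine-rich repeats, read 209 and 180.2 against 1189.5 and 822 units, a difference of -2.35 ± 0.19 (adjusted p = 9.48e-07). In all of these, atgsnor1-3 was lowest, sid2 intermediate and Col-0 highest by group mean. AT5G55450, of the lipid transfer protein family, read 3.15 and 2.84 units against 117 and 90.0 in sid2 and 872 and 659.9 in Col-0, a difference of -5.10 ± 0.39. Both atgsnor1-3 arrays lay far under 20.2 units, so its size is uncertain, and with 9.48 units added to each signal it was -3.17. AT3G20820, with leucine-rich repeats, was at -3.12, AT2G34810, of the berberine bridge enzyme family, at -2.62, the subtilase gene AT4G30020 at -2.46, and AT3G48460 and AT4G01130, of the GDSL lipase family, at -2.06 and -3.75, the second at -1.62 with the added 9.48 units. AT1G52000, of the jacalin lectin family, was at -2.49, and AT3G28220, of the TRAF-like family, at -2.33.

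**Figure D2:**
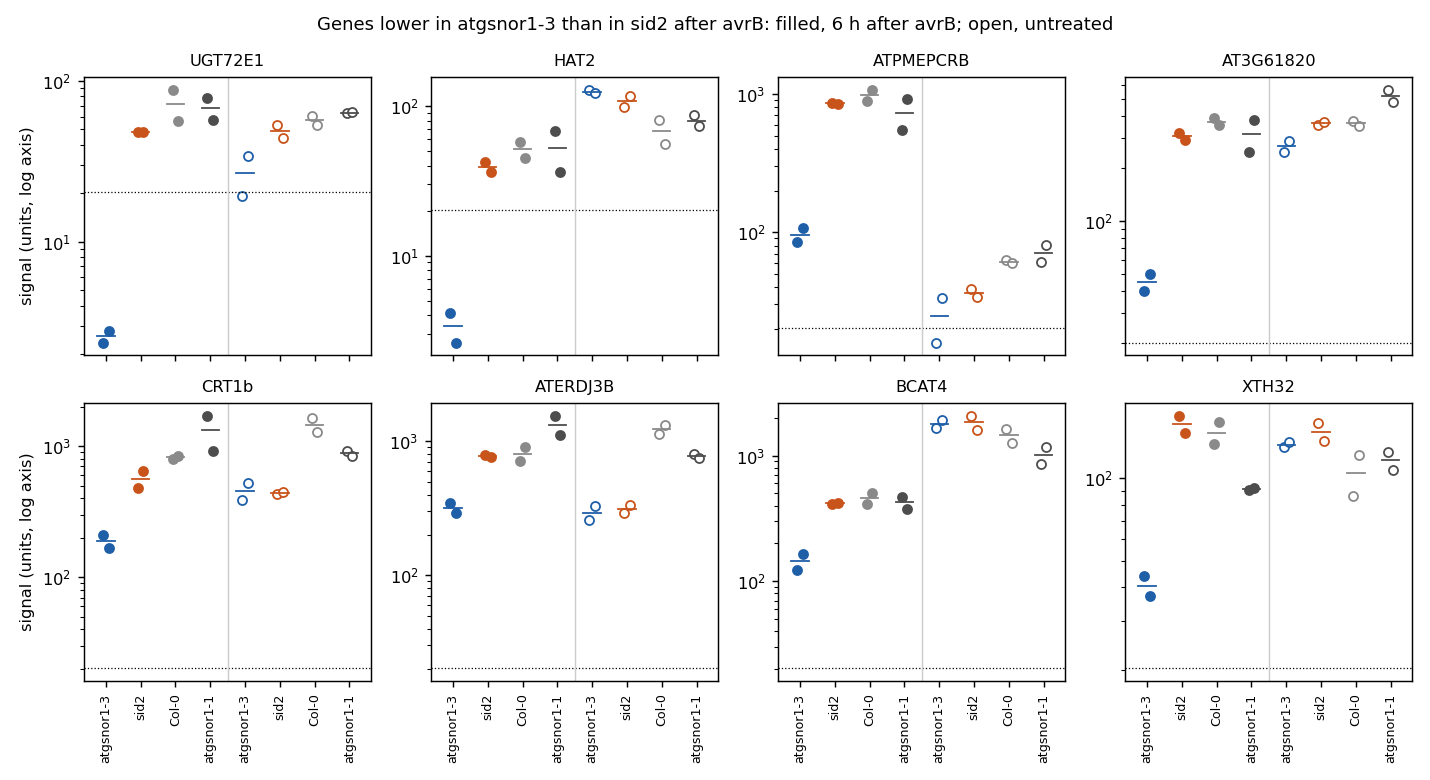
Signals of 8 genes lower in atgsnor1-3 than in sid2 after avrB, on log axes in units that differ between panels; each point is 1 array, short lines are means, filled points are 6 h after avrB, open points are untreated, and the dotted line marks 20.2 units. Both filled atgsnor1-3 points are the lowest filled points in every panel, and for CRT1b and ATERDJ3B the untreated points of both atgsnor1-3 and sid2 lie below those of Col-0.

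Secreted proteins are folded in the endoplasmic reticulum. Here 3 of the 6 tested folding genes were lower in atgsnor1-3, with none higher, beside 6.34% called lower over all tested probe sets. Calreticulin CRT1b, a calcium-binding chaperone, read 211 and 168 units in atgsnor1-3, 476 and 641 in sid2, 802 and 844 in Col-0 and 1714 and 922 in atgsnor1-1. The groups did not overlap, and the mutants differed by -1.56 ± 0.24 (adjusted p = 0.000373). ATERDJ3B, a co-chaperone, read 346 and 292 against 794 and 761 units, a difference of -1.29 ± 0.19 (adjusted p = 0.000182). AT5G07340, of the calnexin family, read 34.6 and 26.4 against 70.1 and 93.4 units, a difference of -1.42 ± 0.24 (adjusted p = 0.000646). The other members are the transcription factors that switch on folding genes, and all stood above 0 without a call. BZIP60 read 1306 and 1194 units against 667 and 732, a difference of 0.84 ± 0.17 (adjusted p = 0.00303), below the size threshold although the groups did not overlap. BZIP17 stood at 0.85 ± 0.26 and BZIP28 at 0.29 ± 0.23. The list's median was -0.50, and its 3 lower calls held without any one of the 4 arrays; without array 1 of atgsnor1-3 a higher call joined them.

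Glucosinolates are defence compounds of the cabbage family. Of 3 tested aliphatic glucosinolate genes 2 were called lower, with a median of -1.51, beside 6.34% called lower over all tested probe sets. BCAT4, an aminotransferase at the start of methionine chain elongation, read 123 and 165 units in atgsnor1-3, 412 and 421 in sid2 and 415 and 505 in Col-0. Here sid2 and Col-0 overlapped while atgsnor1-3 lay below both, at -1.55 ± 0.21 from sid2 (adjusted p = 9.06e-05). AT2G31790, a glucosyltransferase of glucosinolate synthesis, read 37.5 and 23.9 against 101 and 72.0 units, a difference of -1.51 ± 0.23. UGT74B1, which acts on the same kind of substrate, stood at -0.28 ± 0.21 without a call.

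The glycosyltransferase list had 25 tested genes, out of 47 that the annotation matched, and all those tested carry a UGT name. Of the 25, 2 were lower, none was higher, and the median was -0.05, beside the 6.34% called lower over all tested probe sets. More of them were lower without array 1 of atgsnor1-3 after avrB. UGT72E1, known to glucosylate monolignol aldehydes, read 2.35 and 2.80 units in atgsnor1-3 against 47.7 and 48.1 in sid2 and 88.0 and 56.5 in Col-0. It was near background in atgsnor1-3 alone, with a difference of -4.22 ± 0.35 (adjusted p = 1.52e-06), or -2.25 with 9.48 units added to each signal. UGT71B1 was at -1.70. AT1G06000, a flavonol rhamnosyltransferase, was at -2.50, with 32.7 and 25.5 units against 158 and 169. It and AT2G31790 carry locus names here and lie outside that list, so its count does not cover all glycosyltransferase genes. Of 4 tested phenylpropanoid genes 1 was called: AT3G13610, a hydroxylase of scopoletin synthesis, stood at -1.98 ± 0.48, a call that ended without array 1 of atgsnor1-3 (adjusted p = 0.106) or array 1 of sid2 (adjusted p = 0.0849). MSRB5, a methionine sulfoxide reductase, read 15.9 and 19.9 against 131 and 133 units and was lower, at -2.89 ± 0.17 (adjusted p = 2.41e-07).

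Of 3 tested auxin genes, out of 13 that the annotation matched, 2 were lower, beside 6.34% called lower over all tested probe sets. With no filter on dim probe sets all 13 were tested, 2 were lower and the median was -0.07. HAT2, a homeodomain-leucine zipper factor induced by auxin, read 4.11 and 2.62 units in atgsnor1-3 against 42.3 and 36.0 in sid2, and 57.5 and 45.1 in Col-0. Of these only atgsnor1-3 stood under 20.2 units, and the difference was -3.57 ± 0.33 (adjusted p = 3.7e-06), or -1.92 with 9.48 units added to each signal. WES1, an enzyme that conjugates auxin and salicylic acid to amino acids, read 1.50 and 15.7 against 45.0 and 67.6 units, a difference of -3.51 ± 0.79. Its call ended without array 1 of atgsnor1-3 (-1.81, adjusted p = 0.057) or array 2 of sid2 (adjusted p = 0.0573), and with the added 9.48 units its difference was -1.96. IAA18, an auxin response repressor, stood at 0.42 ± 0.23 without a call.

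The 5 tested genes of salicylic acid and pipecolate biology held 1 call, on the lower side, beside 6.34% called lower over all tested probe sets. WRKY53, a transcription factor that responds to salicylic acid, read 99.8 and 122 units in atgsnor1-3 and 327 and 268 in sid2, with Col-0 at 325 and 344. The sid2 and Col-0 arrays overlapped and those of atgsnor1-3 were lower, at -1.43 ± 0.27 from sid2 (adjusted p = 0.00164). UGT76B1, which glucosylates salicylic acid and isoleucic acid, read 504 and 297 against 141 and 105 units, a difference of 1.67 ± 0.87 without a call (adjusted p = 0.212), and both mutants lay below Col-0 at 1036 and 790.2. SAG101, a partner of the immune regulator EDS1, stood at -0.96 ± 0.31 (adjusted p = 0.0453) and AT5G52810, which acts in pipecolate synthesis, at -0.92 ± 0.20 (adjusted p = 0.00465), both short of the size threshold. GRX480, a glutaredoxin used as a salicylic acid marker, read 322 and 291 against 267 and 294 units (0.13 ± 0.29), so its groups overlapped. The list's median was -0.92, and without array 1 of atgsnor1-3 it held 2 calls. Among immune components, SGT1A, a co-chaperone of resistance proteins, was lower, at -1.11 ± 0.20 (adjusted p = 0.00109), and read 471 and 458 against 1019.6 and 981 units and 1007 and 1002 in Col-0, while the receptor-like kinase BIK1 stood at 0.45 ± 0.19 without a call.

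Of 10 tested calcium-binding genes 1 was lower, AT2G41090, of the calmodulin-like family, at 1200.3 and 786 units against 3818 and 3474 (-1.91 ± 0.22, adjusted p = 2.77e-05). Over all tested probe sets 6.34% were called lower. Of 5 tested WRKY genes only WRKY53 was called, and WRKY6, linked to senescence, stood at 0.83 ± 0.38. Among 4 tested cold-response genes, COR15A and COR15B, which protect chloroplast membranes in the cold, were lower, at -1.36 ± 0.20 and -1.23 ± 0.24, and COR47 and LTI30 had no call (-0.35 and 0.11). All 5 tested beta-tubulin genes lay below 0, with a median of -0.89, and 1 was called: TUB5, at -1.23 ± 0.22, which was no longer called, by size, without array 2 of atgsnor1-3 (adjusted p = 0.0207). Without any one of the other 3 arrays 2 tubulin genes were called.

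Photosynthesis genes gave 1 call between the mutants after avrB, on the lower side, beside 6.34% called lower over all tested probe sets. Of 12 tested photosystem and carbon fixation genes it was LHCB4.3, a minor antenna protein, at -1.16 ± 0.29, a call that ended without array 2 of atgsnor1-3 (-0.85, adjusted p = 0.145) and without array 1 of sid2 (-0.93, adjusted p = 0.121). The list's median was -0.12. All 6 tested chlorophyll synthesis genes lay between -0.53 and -0.20, and none was called. Of 69 chloroplast-encoded probe sets none was called, with a median of 0.05 and a range from -1.25 to 0.85; limma called 3 lower and 1 higher without array 1 of atgsnor1-3.

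Jasmonate genes gave no call among 6 tested after avrB, with a median of -0.07. Over all tested probe sets 8.86% were called, so no call among so few genes says little. AT2G38240, a jasmonate oxidase, read 2728 and 3090.2 units in atgsnor1-3 and 3494 and 4258 in sid2, and the defensin PDF1.2 34.7 and 32.9 and 19.5 and 22.6. The ethylene factor EIN3 (0.12 ± 0.15), the tryptophan synthesis gene AT2G04400 (0.15 ± 0.19) and the zinc finger factor STZ (0.44 ± 0.20) were the only tested members of their lists, and they had no call either.

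**Figure D3:**
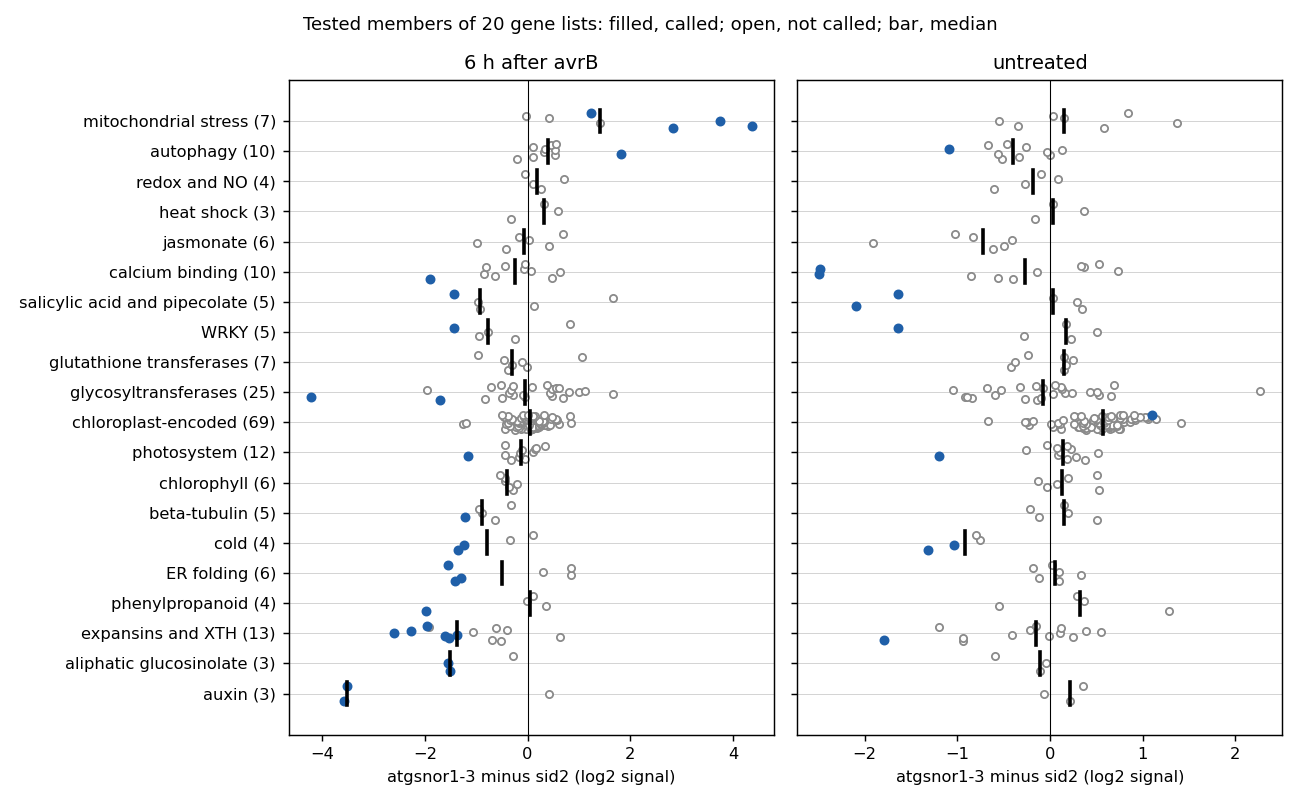
Log2 differences between atgsnor1-3 and sid2 for the tested members of 20 gene lists, after avrB (left) and untreated (right, with a narrower axis); the number tested is in brackets, filled points were called, open points were not, bars are medians, and vertical offsets only separate points. After avrB the 4 called members of the mitochondrial stress list and the 1 of the autophagy list lie to the right of 0. Called members of the other lists lie to the left.

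The same genotypes at rest show which of these differences were there before avrB. In untreated leaves 307 of 13647 probe sets were called (2.25%), 57 higher in atgsnor1-3 (0.418%) and 250 lower (1.83%). Without array 1 of untreated atgsnor1-3 there were 638 calls, with 141 higher and 497 lower. Without array 2 of that group there were 426, with 43 higher and 383 lower, and without array 2 of untreated sid2 there were 189 calls, with 143 lower. The untreated and the avrB contrast use different arrays. Called higher in both were 13 probe sets, 3.78% of the higher calls after avrB and 22.8% of those at rest, and called lower in both were 76, or 8.79% and 30.4%. For the probe sets called after avrB, the median difference at rest was 0.30 for the higher and -0.28 for the lower ones.

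None of the mitochondrial stress genes was called at rest, where the list's median was 0.15; without array 1 of untreated atgsnor1-3 there were 1 higher and 1 lower call, and without array 2 of untreated sid2 there was 1 higher call. AT2G21640 read 64.1 and 32.3 units in untreated atgsnor1-3 and 42.5 and 79.3 in untreated sid2, so the groups overlapped (-0.35 ± 0.39). AT5G43450 read 56.1 and 79.4 and 72.1 and 60.6 units, again overlapping (0.01 ± 0.23). HAT2 (129 and 122 against 98.7 and 117 units) and BCAT4 (1663 and 1907 against 2087 and 1612 units) were of like height in both mutants before avrB, at 0.22 ± 0.33 and -0.04 ± 0.21. CRT1b was at 387 and 522 units in untreated atgsnor1-3 and 435 and 449 in untreated sid2, but 1627 and 1291 in untreated Col-0. ATERDJ3B gave a like picture, at 257 and 327, 293 and 336 and 1136 and 1311 units. AT5G07340 also lay below Col-0 in both mutants at rest, and none of the 3 folding genes was called between the mutants there.

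Several genes were already lower at rest. AT5G55450 read 21.0 and 6.29 units in untreated atgsnor1-3 and 69.6 and 116 in untreated sid2, far under the 1669.6 and 1483 of Col-0, and the mutants differed by -2.97 ± 0.39 (adjusted p = 0.00042). AT1G35710 (-1.48 ± 0.20), MSRB5 (-1.12 ± 0.17), WRKY53 (-1.64 ± 0.27) and COR15A (-1.32 ± 0.20) were lower in both states. In a fit of the compared groups alone, the call of WRKY53 at rest ended (adjusted p = 0.115). QQS, a gene known to affect leaf starch, was lower, at -2.90 untreated and -3.15 after avrB (-1.24 with 9.48 units added to each signal), and so was AT3G28270, for which no role is given here, at -2.30 and -2.24. AT1G06830 was higher in both states, by 1.24 ± 0.21 at rest; without array 1 of untreated atgsnor1-3 that difference was 0.91 and no longer called.

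Other genes were lower at rest and had no call after avrB. AT1G57630, with a TIR domain as in many resistance proteins, read 3.09 and 0.872 units in untreated atgsnor1-3 and 19.9 and 15.7 in untreated sid2, a difference of -3.43 ± 0.38 (adjusted p = 7.2e-05). After avrB it reached 1248 and 1381 and 1441 and 1445 units, a difference of -0.14 ± 0.38. AT4G27280, with calcium-binding EF hands, read 22.7 and 66.2 and 340.4 and 386 units at rest (-3.23 ± 0.31, adjusted p = 2.15e-05) and 962 and 952 and 1331 and 1300.0 after avrB (-0.46 ± 0.31). GRX480 stood at 6.50 and 5.99 units against 27.8 and 25.3 at rest (-2.09 ± 0.29, adjusted p = 0.00063), with Col-0 at 163 and 66.8. STZ was lower at rest, at -1.29 ± 0.20 (adjusted p = 0.00138), but at -0.94 and no longer called without array 1 of untreated atgsnor1-3. The 6 jasmonate genes all lay below 0 at rest, from -1.91 to -0.40, with a median of -0.72. None was called, beside 2.25% called over all tested probe sets at rest. Without array 2 of untreated atgsnor1-3, limma called 2 of the 6 lower at rest, with a median of -1.27, and 3 of them higher in the difference of responses. Signals of AT1G57630 and GRX480 at rest were near background in atgsnor1-3, so their sizes are uncertain: with 9.48 units added to each signal they were -1.26 and -1.20. In a fit of the compared groups alone, both calls at rest ended (adjusted p = 0.272 for AT1G57630 and 0.207 for GRX480).

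**Figure D4:**
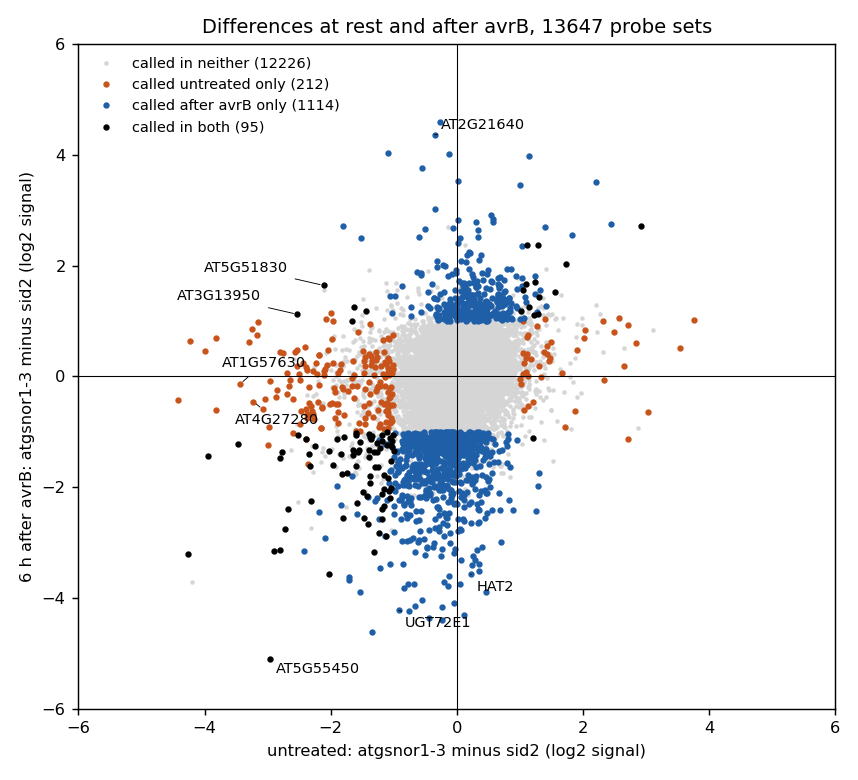
Each point is 1 of 13647 probe sets, with the log2 difference between atgsnor1-3 and sid2 in untreated leaves on the horizontal axis and after avrB on the vertical axis; colours give the contrast in which it was called. Of the points, 89 are called in the same direction in both, and AT5G51830 and AT3G13950 are among the 5 that are higher after avrB and lower at rest.

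The question whether the mutants differed by another amount after avrB than at rest has its own test. The difference of responses was called for 699 of 13647 probe sets (5.12%), 271 higher in atgsnor1-3 (1.99%) and 428 lower (3.14%). It uses the same arrays after avrB as the contrast after avrB, so agreement in sign between them is partly built in. Of the probe sets called after avrB, 97 higher and 333 lower ones had a difference of responses called with the same sign and no call at rest. This count depends on single arrays: 379 probe sets were called without array 1 of sid2 after avrB, 424 without array 2 of that group, 426 without array 2 of atgsnor1-3 after avrB and 429 without array 2 of untreated sid2, against 1045 without array 1 of untreated atgsnor1-3. In the same order the higher calls numbered 146, 156, 138, 158 and 523, and the lower calls 233, 268, 288, 271 and 522.

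By list, 3 of 7 mitochondrial stress genes had a higher response in atgsnor1-3, as had 2 of 10 autophagy genes, of which ATG8E had been lower at rest. Beside these list counts stand 1.99% called higher and 3.14% called lower over all tested probe sets. The lists were chosen with earlier results of these data known. Lower responses were called for 3 of 13 wall-loosening genes, 3 of 6 folding genes, 2 of 3 aliphatic glucosinolate genes, 2 of 25 glycosyltransferase genes, 2 of 5 tubulin genes and 1 of 3 auxin genes. In the folding list, BZIP60 was called in the other direction. The 3 lower folding calls became 0 without array 2 of atgsnor1-3 after avrB, 1 without array 2 of sid2 after avrB or array 1 of untreated sid2, and 2 without array 1 of sid2 after avrB. The wall-loosening calls fell to 1 without array 2 of sid2 after avrB, and the tubulin calls to 0 without array 2 of atgsnor1-3 or array 1 of sid2 after avrB. Without 1 of the 8 arrays, the mitochondrial stress list held 2 or 3 higher calls, the autophagy list 1 to 3, and the glucosinolate and glycosyltransferase lists 1 or 2 lower calls each.

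A few genes turned round. In 5 probe sets atgsnor1-3 was lower than sid2 at rest and higher after avrB, each by a call, and in 1 it was the reverse. AT5G51830 read 10.5 and 6.34 units in untreated atgsnor1-3 against 38.2 and 32.4 in sid2 (-2.11 ± 0.23, adjusted p = 6.74e-05), and 428 and 534 against 161 and 145 after avrB (1.64 ± 0.23, adjusted p = 0.000145). AT3G13950, of unknown function, stood at -2.53 at rest and 1.12 after avrB, where its call ended without any one of the 4 arrays (adjusted p of 0.071 to 0.269). In a fit of the compared groups alone, the calls of AT5G51830 (adjusted p = 0.139) and AT3G13950 (adjusted p = 0.375) at rest ended. With 9.48 units added to each signal AT5G51830 was at -1.33 at rest, and AT3G13950 at -0.99 and no longer called. AT3G03870 stood at -1.63 and 1.24, and the other 2 probe sets carry no single named gene. In the opposite sense, AT5G53110 stood at 1.21 at rest and -1.11 after avrB. The genes of this paragraph other than AT5G51830 and AT3G13950 were named after their values had been seen.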

How the data were processed

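RNA from leaves was labelled by a one-cycle protocol and hybridised to 1 ATH1 array per sample, per the labels' protocols. What was deposited is MAS5 signals, an intensity on a linear scale, per the submitters' processing notes, which also name GCOS, with versions not given in the sources used here. As a method, MAS5 gives 1 signal per probe set and array, and its low signals are noisy on a log scale. Of the 22746 probe sets that are not controls, the dimmest 40% was left out, judged by mean log2 signal over all 16 arrays (20.2 units), which left 13647. A gene bright in 1 group alone could fail this filter. Log2 signals were fitted in limma 3.58.1 (R 4.3.3) with 8 group means, a variance trend and 8 residual degrees of freedom. A two-sided moderated test was adjusted by Benjamini-Hochberg over all tested probe sets. A call needed an adjusted p below 0.05 together with a size of 1 or more on the log2 scale. The code was tested on simulated data.

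Gene names came from the platform annotation, with loci matched to the RefSeq TAIR10.1 gene table for 13436 probe sets. Probe sets with several genes or none were counted but not named. Named genes were the largest called differences each way in the 3 contrasts, with non-overlapping groups for the first 2 and a group mean of at least 100 units. Called members of the gene lists and list members of known role were added. Members, lists and contrasts were chosen with earlier results of these data known. Alternatives were no filter, a stricter filter that drops the dimmest 60%, quantile normalization, an added 9.48 units before the log, no variance trend, only the compared groups, replicate number as a block, and leaving out each array. The number of arrays limits the precision.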

Additional observations from a re-analysis of the deposited data

Results flagged for a closer look

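Each value here is the log2 difference between the response of atgsnor1-3 and that of sid2 to avrB, called by the limma contrast of the responses. Over all tested probe sets 699 were called, and 59 of the named genes were among them. The 45 given here leave out the genes that were named by their size after avrB or at rest alone. Groups of 2 arrays were too small for a check of outlying arrays.

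Among genes with the higher response in atgsnor1-3, AT2G41730 stood at 5.12, and the mitochondrial stress genes AT2G21640, AT5G51440 and AT2G04070 at 4.71, 4.31 and 2.26. The dioxygenase gene AT5G43450 stood at 3.51 and ATG8B at 2.39. Genes that had been lower in atgsnor1-3 at rest included AT5G51830 at 3.75, AT3G13950 at 3.65, the TIR-domain gene AT1G57630 at 3.30 and AT1G13340 at 2.93. The glutaredoxin gene GRX480 at 2.21, the zinc finger gene STZ at 1.72 and ATG8E at 1.43 had also been lower. ATG8E stood at -1.09 at rest (-0.84 without array 2 of untreated sid2) and at 0.34 after avrB, where it had no call. AT5G14730 stood at 4.03, AT5G40690 at 3.12 and the folding regulator BZIP60 at 1.02.

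Among genes with the lower response, the wall genes EXPA8, GH9C2, XTH32 and EXPA16 stood at -2.71, -2.57, -1.81 and -1.61. The folding genes CRT1b, AT5G07340 and ATERDJ3B stood at -1.58, -1.51 and -1.18, and the glucosinolate genes BCAT4 and AT2G31790 at -1.51 and -1.40. The auxin-responsive factor HAT2 was at -3.79, UGT72E1 at -3.30 and UGT71B1 at -1.57, AT3G13610 of scopoletin synthesis at -3.26, and AT5G52810 of pipecolate synthesis at -1.26. The lipase-family genes AT4G01130 and AT3G48460 were at -3.79 and -2.51, the protease genes AT4G30020 and AT3G19400 at -2.93 and -2.52, and the leucine-rich repeat genes AT2G19780 and AT3G20820 at -3.65 and -2.88. The calmodulin-like gene AT2G41090 was at -1.51, the basic helix-loop-helix gene AT5G50915 at -2.53, TUB5 at -1.11 and TUB6 at -1.09. AT2G39870, AT5G42860, AT4G38560, AT2G25270 and AT4G03150, for which no role is given here, were at -4.35, -3.92, -3.85, -3.50 and -3.004.

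Of the 45 genes, 25 were still called without each of the 8 arrays in turn. Of these 25, AT4G01130 lost its call with 9.48 units added to each signal (-1.66, adjusted p = 0.0647), while the other 24 kept theirs under each alternative that tested them. With those units added HAT2 stood at -2.12 and UGT72E1 at -1.54, and 16 of the 59 named genes had a log2 size more than 1.5 times smaller. The 20 of the 45 that lost a call without some array were AT4G38560, AT2G25270, AT3G13610, EXPA8, AT3G19400, EXPA16, CRT1b, UGT71B1, AT5G07340, AT2G41090, AT2G31790, AT5G52810, ATERDJ3B, TUB5, TUB6, BZIP60, ATG8E, AT1G13340, AT5G14730 and AT5G51440. Leaving out array 1 or 2 of sid2 after avrB ended 14 and 13 of the calls, and leaving out array 1 or 2 of untreated sid2 ended 12 and 11. For atgsnor1-3, array 1 or 2 after avrB ended 3 and 11, and array 1 or 2 of the untreated leaves 3 and 4. The limma adjusted p of the lost calls lay between 0.0476 and 0.182, and those under 0.05 were lost by size.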

How the results depend on the processing

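After avrB, of 861 values for 80 named probe sets under the alternatives, 811 kept their side of the threshold, 45 lost a call, 5 gained one and 0 changed direction; 18 of the probe sets had some change. At rest, 20 of the 33 named genes called lost the call under at least 1 alternative, 13 of them in a fit of the compared groups alone, and for the difference of responses 26 of 59 did, also 13 in that fit. In a fit of the compared groups alone, QQS (adjusted p = 0.102), EXPB1 (adjusted p = 0.332), AT1G76960 and AT2G39870 lost their calls after avrB in limma. After avrB the total ran from 856 with the filter on the dimmest 60% to 1302 with only the compared groups, and from 921 to 1277 without 1 array. The higher calls numbered 209 with the 60% filter and 229 to 338 without 1 array. At rest, a fit of only the compared groups gave 146 calls, 26 higher and 120 lower, and the 60% filter gave 31 higher. Without 1 array the calls at rest ran from 189 to 638, the higher from 43 to 141 and the lower from 143 to 497. For the difference of responses, the compared groups alone gave 454 calls, 179 higher and 275 lower. Without 1 array it gave 379 to 1045, with 138 to 523 higher and 233 to 541 lower. The cause was not tested.

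With the replicate number as a block, the calls numbered 1201 after avrB (341 higher, 860 lower), 298 at rest and 671 for the difference of responses. Deviations of same-numbered arrays correlated at -0.153 to 0.105 over 28 pairs of groups. Whether some same-numbered arrays share a batch was not tested further. A median of 33.0 to 40.8 units per array places many probe sets near background, where fold sizes are uncertain, and 2 arrays per group leave the spread to be borrowed from the other genotypes.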
